A study of Arabidopsis thaliana with 6 samples.

Results

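The comparison described here sets vip6 mutant Arabidopsis thaliana against wild type on oligonucleotide expression arrays. It takes the arrays titled vip6_1 and vip6_2 and the arrays titled WT_1 and WT_2, which are 4 of the 6 arrays of the series, and every probe set other than the array's own controls. Both groups were plants 3 weeks old, and total RNA was hybridised. The other 2 arrays came from vip5 mutant plants of the same age and entered the fit to share the estimate of the spread. The labels give neither the vip6 allele, the accession of the wild type, the organ sampled, any treatment, nor what the replicate numbers 1 and 2 stand for. They do not say if replicate arrays hold RNA of different plants, so each p-value reflects array-to-array spread, which may be technical.

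VIP6, also named ELF8, is the plant counterpart of Ctr9, a subunit of the Paf1 complex. This complex travels with RNA polymerase II and is needed for several histone modifications over transcribed genes. In Arabidopsis its subunits are known for keeping floral repressor genes of the FLC family active, and mutants in them flower early. The comparison asks which transcripts differ in plants that lack normal VIP6 function. No probe set is paired with VIP6 in the annotation used, so the genotype label was not checked against its own transcript, and FLC likewise has no value here.

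Of 22746 probe sets, 14319 passed the filter on dim signals and were tested, and 7700 of those name 1 gene. The deposited values are linear intensities, and differences are given throughout as log2(intensity + 39.5), vip6 minus wild type, so that 1 is a 2-fold difference and changes of dim transcripts are understated. A probe set is said to have risen or fallen only where the Benjamini-Hochberg adjusted p of limma, taken over all tested probe sets, was at most 0.05. The difference is also given within replicate number 1 and within number 2. The 6 arrays had been scaled alike, with trimmed means from 494 to 497. The 18 probe sets for spiked hybridisation controls were 1.40 to 2.17 times brighter on WT_2 than on WT_1 and 1.76 to 3.95 times brighter on vip6_2 than on vip6_1. Between the genotypes they lay at 0.689 to 1.17 times wild type in number 1 and at 0.948 to 1.82 times in number 2, and the part of this in the results was not tested. For the actin and GAPDH controls, the ratio of 3' end to 5' end signal was highest on WT_1 in every pair of probe sets. In 1 actin pair it was 1.87 on WT_1, 1.29 on WT_2, 1.62 on vip6_1 and 1.48 on vip6_2. In the other actin pair it was far higher, at 15.9, 8.48, 13.3 and 13.9 in that order. In 1 GAPDH pair it was 1.75, 1.27, 1.52 and 1.04 in that order. The part of these ratios in the results was not tested either.

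In vip6, 5 probe sets rose (0.0349% of those tested) and 10 fell (0.0698%), together 0.105%. At an unadjusted p under 0.05 there were 1415, of which 652 were higher and 763 lower. With any 1 of the 4 arrays left out (WT_1, WT_2, vip6_1 or vip6_2), limma called 0 probe sets, with 945 to 1252 at an unadjusted p under 0.05. Fitted to the 4 arrays alone it called 5, of which 4 were among the 15. Every one of the 15 was at least 2-fold apart within both numbers, with both vip6 arrays on one side of both wild type arrays. Passing the test with so few arrays largely fixes this. Over all tested probe sets, 0.636% were at least 2-fold apart within both numbers. In 19.1% both vip6 arrays lay above both wild type arrays, and in 20.8% below. Of the 15, 8 are paired with 1 gene, 1 with several genes, and 6 are not listed in the annotation.

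The gene called with the lowest adjusted p was AT2G19970, whose probe set read 218 and 225 on the wild type arrays and 2.7 and 3.2 on the vip6 arrays. The vip6 values lie below the pseudocount of 39.5, close to the floor of the array. AT2G19970 fell by 2.62 on the log2 scale (95% interval -3.02 to -2.21, limma adjusted p = 0.00842), with -2.61 in number 1 and -2.63 in number 2. Because the RNA came from plants in bulk, fewer cells of a type and less RNA per cell cannot be told apart here or below.

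PDF1.2b (AT2G26020) encodes a plant defensin, a small secreted antifungal peptide whose gene responds to jasmonate and ethylene. Its probe set read 858 and 418 in wild type and 37.2 and 40.4 in vip6. The wild type arrays stood well apart from each other, and the vip6 arrays were both near the pseudocount. PDF1.2b fell by 3.03 (95% interval -3.82 to -2.24, limma adjusted p = 0.0364), with -3.55 in number 1 and -2.52 in number 2.

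The other named loci that fell have no gene symbol. AT3G16670 read 1001 and 1309.9 in wild type against 232 and 118 in vip6, a log2 difference of -2.52 (limma adjusted p = 0.0364) made up of -1.94 and -3.10 within the numbers. AT4G21650 read 1362 and 1605 against 353 and 372, a difference of -1.92 (limma adjusted p = 0.0358), with -1.84 and -2.00. For both loci all 4 arrays separate by genotype with a wide gap.

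The 4 named loci that rose were dim or moderate in wild type. AT1G02190 went from 105 and 79.3 in wild type to 478 and 639 in vip6, the highest mean difference of a named probe set at 2.18 (95% interval 1.58 to 2.77, limma adjusted p = 0.0392), with 1.84 and 2.51 within the numbers. AT1G20390, annotated as a pseudogene, went from 68.6 and 85.5 to 435 and 431, a difference of 2.02 (95% interval 1.48 to 2.57, limma adjusted p = 0.0368), with 2.13 and 1.91. The 2 vip6 arrays agreed closely for the pseudogene and less so for AT1G02190. AT5G56240 read 367 and 376 in wild type and 1457 and 1180.3 in vip6, a difference of 1.72 (limma adjusted p = 0.0358). AT1G22480 read 224 and 228 in wild type and 723 and 756 in vip6, a difference of 1.56 (limma adjusted p = 0.0364), with 1.54 and 1.57 within the numbers. The wild type arrays agreed within a few units for both of these loci.

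The unlisted probe sets that were called include the highest difference of all those tested. Probe set 260037_at read 42.2 and 48.4 in wild type and 456 and 398 in vip6, a difference of 2.46 (95% interval 2.02 to 2.89, limma adjusted p = 0.0116). Probe set 245736_at was bright in wild type, at 5204 and 5989, and read 1045 and 693 in vip6, a difference of -2.66 (limma adjusted p = 0.0358). No gene is given to either here.

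**Figure D1:**
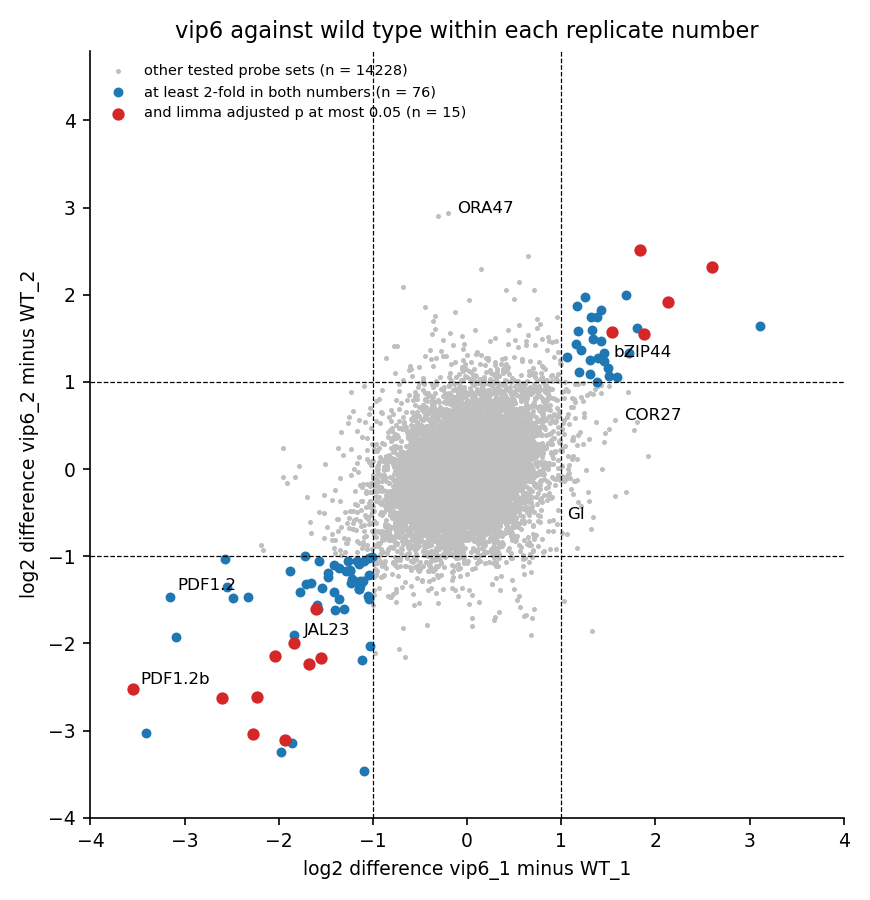
Each point is 1 of 14319 tested probe sets, with the log2 difference vip6_1 minus WT_1 on the horizontal axis and vip6_2 minus WT_2 on the vertical axis, both in log2(intensity + 39.5). Dashed lines mark 2-fold differences; blue points (76) are at least 2-fold apart in both numbers in the same direction and red points (15) also have a limma adjusted p of at most 0.05. ORA47 lies high in number 2 alone, and GI changes side between the numbers.

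A rule of size, with no test, describes the comparison more widely. Within both numbers and in the same direction, 91 probe sets (0.636% of those tested) were at least 2-fold apart, 31 of them higher in vip6 (0.216%) and 60 lower (0.419%). Within number 1 alone there were 311 and within number 2 alone 458, and 2 probe sets were 2-fold apart in opposite directions in the 2 numbers. The median mean intensity of the higher set was 115 in wild type and 433 in vip6, that of the lower set 677 and 185, and that of all tested probe sets 432 and 426, an order that the choice of the sets partly fixes. Of the 91, 50 are paired with 1 gene, 15 higher and 35 lower, and 76 did not pass the limma test.

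Among the 35 named genes of this set described individually, the 15 higher and the 20 lowest, the vip6 arrays never overlapped the wild type arrays. Their choice by size within both numbers largely fixed this. Over all tested probe sets, 19.1% had both vip6 arrays above and 20.8% both below. The lowest was AT3G16530, at 1471 and 1332 in wild type and 103 and 128 in vip6, a log2 difference of -3.22 (limma adjusted p = 0.0681). AT1G69480 read 824 and 368 in wild type and 62.0 and 67.9 in vip6, at -2.51 (limma adjusted p = 0.0595). Both were close to the threshold and just missed it. AT5G48490, bright in wild type at 3192 and 2851, read 908 and 1048 in vip6, and AT1G59960 read 380.1 and 384 against 119 and 119.7. Their mean differences of -1.59 and -1.41 had limma adjusted p of 0.0778 and 0.0595.

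Some of the lower loci had a wide spread between arrays. AT1G19960 read 2582 and 1629 in wild type but 626 and 137 in vip6, so that the difference was -1.98 in number 1 and -3.24 in number 2. AT1G13650 read 1596 and 1678 against 235 and 803, with -2.57 and -1.03. AT1G76240 read 384 and 1029 in wild type and 151 and 372 in vip6, so that vip6_2 came close to WT_1, although the differences within the numbers, -1.15 and -1.38, were alike. Their limma adjusted p were 0.256, 0.337 and 0.502. The remaining loci among the 20 lowest had mean differences between -1.65 for AT1G12010 and -1.26 for AT4G16870, a pseudogene at 338 and 407 in wild type and 131 and 133 in vip6. In between lay AT1G31690 at -1.57, AT1G14580 at -1.48, AT3G46880 at -1.45 and AT4G02850 at -1.34.

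The higher loci that missed the test included one with almost no signal in wild type. AT1G70880 read 10.8 and 8.2 in wild type and 123 and 150.4 in vip6, a difference of 1.84 (limma adjusted p = 0.0778). AT4G23680 read 496 and 485 against 1161 and 1880.0, at 1.52 (limma adjusted p = 0.157). AT5G27410 read 120.4 and 91.6 against 322 and 353, at 1.38 (limma adjusted p = 0.0635). These loci were in the set for being at least 2-fold higher within both numbers, and among them AT4G23680 was the least even. AT1G43590, also a pseudogene, read 46.8 and 27.4 in wild type and 192 and 145 in vip6, at 1.45. AT3G05400, AT1G43910, AT5G17760, AT5G17850, AT3G24780 and AT1G75880 had mean differences from 1.41 down to 1.15 in that order.

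**Figure D2:**
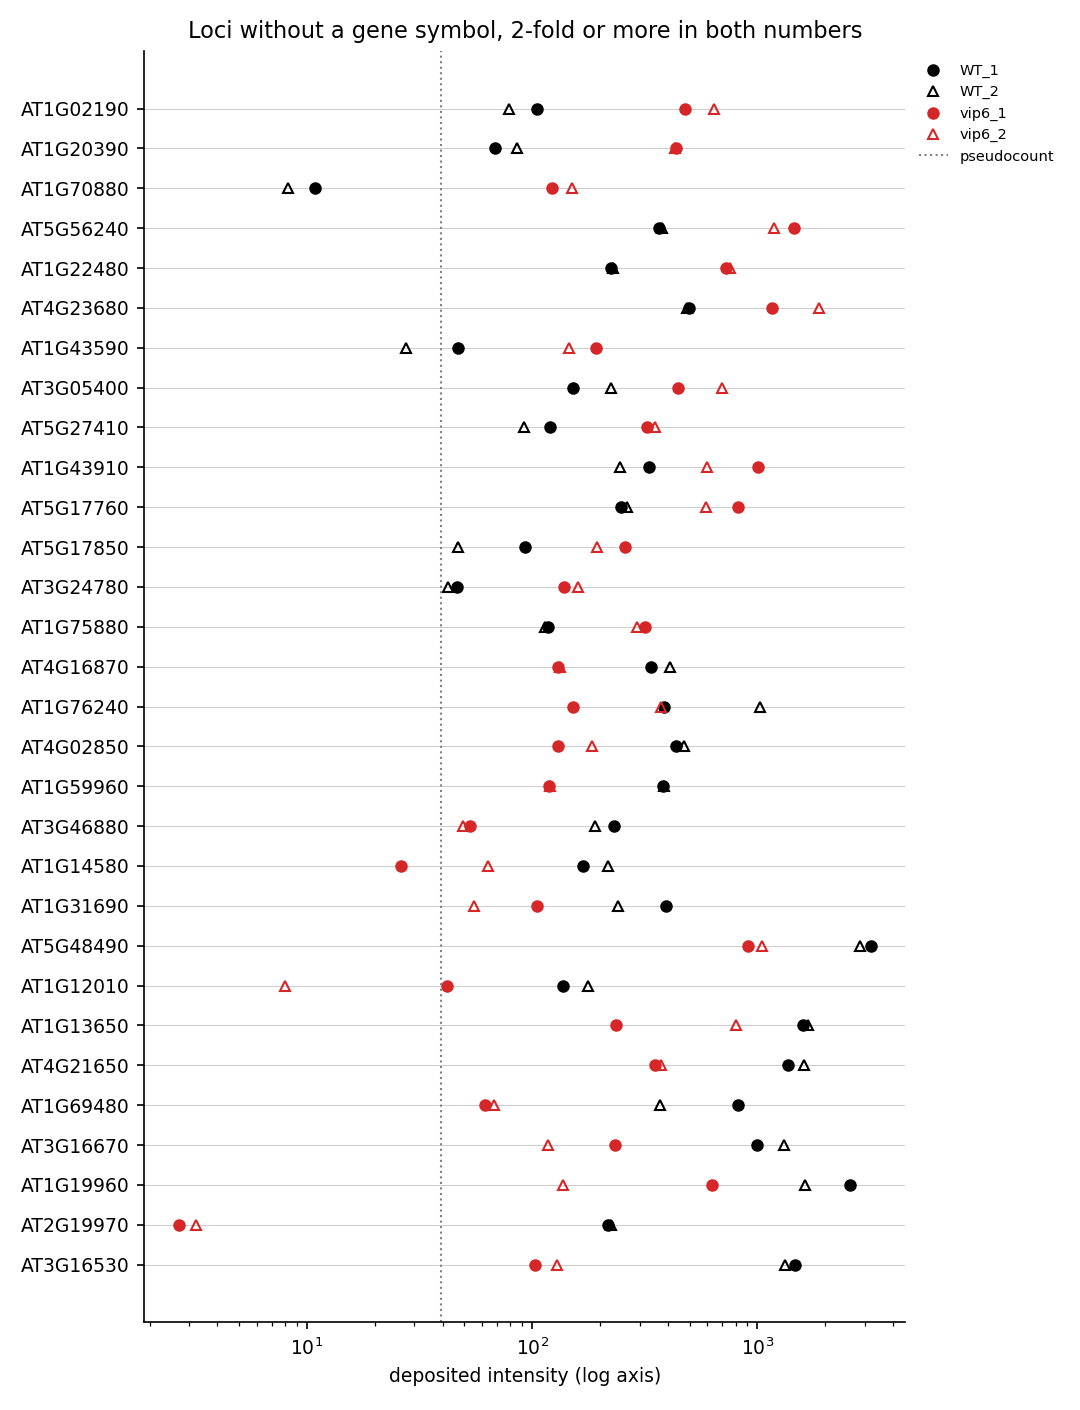
Deposited intensity (log axis) on each wild type (black) and vip6 (red) array for the named loci without a gene symbol among the 15 higher and 20 lowest genes at least 2-fold apart in both numbers, ordered by mean difference. Circles are replicate number 1 and open triangles number 2; the dotted line is the pseudocount of 39.5. Red and black symbols are separated for every locus, with the narrowest gap for AT1G76240. The choice of loci by size largely fixes this separation. Over all tested probe sets 19.1% had both vip6 arrays above and 20.8% both below.

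The genes with a symbol allow the comparison to be described by function. Only 1139 tested probe sets carry one, and 9 of these were at least 2-fold apart in both numbers, 1 higher and 8 lower. Counts for families below refer to members that the annotation names, and none of the lists was given a test of its own. For reading them, the median log2 difference of all tested probe sets was -0.01, and 28.8% of them were higher within both numbers and 30.6% lower.

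Among the gene lists, the defensins held the lowest values. AT3G16530, lower still at -3.22, is in none of the lists. Of 13 defensins and defensin-like peptides named, 5 were tested, 1 fell and 2 were at least 2-fold lower in both numbers, and the median of the 5 was -0.33. Beside PDF1.2b, the second was PDF1.2 (AT5G44420), the standard marker of the jasmonate and ethylene defence branch. PDF1.2 read 518 and 175 in wild type and 23.2 and 38.2 in vip6, a difference of -2.31 (95% interval -3.24 to -1.38, limma adjusted p = 0.128), with -3.15 and -1.46. The coding sequences of PDF1.2 and PDF1.2b are close copies, so their probe sets may read each other's transcripts, which was not tested. The other defensin-like members were closer to wild type. LCR68 read 2786 and 2829 in wild type and 2656 and 1866 in vip6, and LCR69 read 3978 and 2852 against 6317 and 3365. LCR66 read 130.2 and 104 against 90.0 and 192, so its arrays overlapped.

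Of 5 lectins named, 4 were tested and none passed the limma test. Within both numbers 3 were lower and 1 higher, with a median of -0.43. JAL23 (AT2G39330), a jacalin-related lectin, read 663 and 830.0 in wild type and 157 and 193 in vip6, a difference of -1.87 that was even across the numbers (-1.83 and -1.90; limma adjusted p = 0.0779). JAL34, of the same family, read 222 and 259 against 152 and 121, at -0.67. Both JAL23 and JAL34 were lower on each vip6 array than on each wild type array, as were 20.8% of all tested probe sets. For JAL23 its 2-fold difference within both numbers largely fixes this.

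The thionin genes, chosen after their values were seen, were also lower in vip6. THI2.1, a jasmonate-responsive antimicrobial thionin, read 644 and 626 in wild type and 311 and 349 in vip6, at -0.87 (limma adjusted p = 0.205). THI2.2 read 358 and 568 against 203 and 241, at -0.91 (limma adjusted p = 0.327). ECS1, also chosen after its values were seen and among the brightest probe sets, read 26623 and 30072 against 16234 and 18308, which is -0.71 in each number.

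Of 2 genes tested for jasmonate synthesis and response, neither was called. JRG21, a jasmonate-regulated oxygenase gene, was higher in vip6, at 73.0 and 64.8 in wild type and 157 and 169 in vip6, a difference of 0.90 (limma adjusted p = 0.157). JMT, which methylates jasmonic acid, read 167 and 133 against 149 and 182, and its arrays overlapped. ORA47, an AP2/ERF factor that activates jasmonate synthesis genes, read 229 and 250.3 in wild type and 194 and 2179 in vip6. Its mean difference of 1.37 rests on vip6_2 alone and was -0.26 without that array. Of the salicylate genes, SAG101, a partner of EDS1 in immunity, read 116 and 66.6 against 141 and 124, at 0.42. WRKY53, a senescence and defence factor, read 278 and 84.6 against 152 and 162, so the wild type arrays spanned both vip6 arrays.

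**Figure D3:**
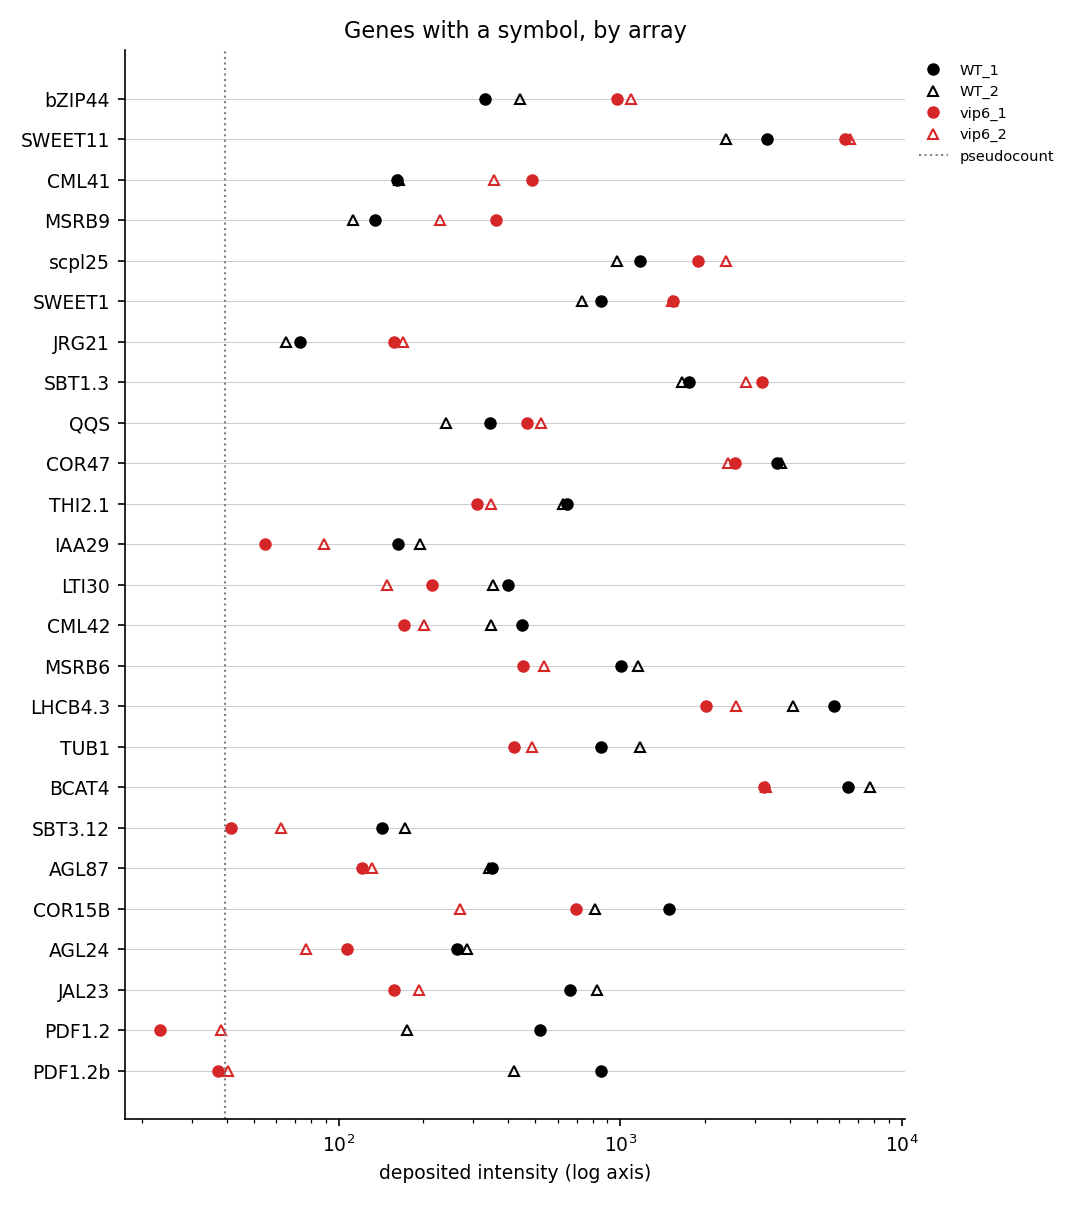
Deposited intensity (log axis) on each wild type (black) and vip6 (red) array for 25 genes with a symbol, ordered by mean log2 difference from bZIP44 at the top to PDF1.2b at the bottom. Circles are replicate number 1, open triangles number 2, and the dotted line is the pseudocount of 39.5. The vip6 arrays lie on one side of both wild type arrays for all 25 genes, which were picked for the text largely because they differ; over all tested probe sets 19.1% lay above and 20.8% below in this way.

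Of 9 flowering regulators named, 6 were tested, and 1, AGL24, was at least 2-fold lower in both numbers. AGL24 (AT4G24540) encodes a MADS box factor that promotes flowering and acts in the inflorescence meristem. It read 262 and 286 in wild type and 107 and 76.2 in vip6, a difference of -1.27 (95% interval -1.74 to -0.79, limma adjusted p = 0.108), with -1.04 and -1.49. The call was missed. The arrays did not overlap, which a 2-fold difference within both numbers largely fixes. Over all tested probe sets, 20.8% had both vip6 arrays below both wild type arrays.

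The other flowering regulators differed little or unevenly. GI, a clock-controlled gene that promotes flowering in long days, read 624 and 770.3 in wild type and 1252 and 545 in vip6, which is 0.96 in number 1 and -0.47 in number 2. LD, of the autonomous pathway, read 265 and 344 against 216 and 287, at -0.24. Neither gene separated the genotypes. AGL18, a MADS box floral repressor, read 128 and 178 against 97.1 and 169.6, SNZ, an AP2-type floral repressor, 101 and 135 against 105 and 119, and FY, an RNA 3' end processing factor of the autonomous pathway, 229.5 and 274 against 230.2 and 254. The largest of these 3 mean differences was -0.18, and in each of the 3 the arrays overlapped.

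Of 44 MADS box genes named, 8 were tested, and AGL24 and AGL87 were the 2 that were at least 2-fold lower in both numbers, with none as much higher. AGL87 (AT1G22590) read 351 and 342 in wild type and 121 and 131 in vip6, a difference of -1.22 (95% interval -1.66 to -0.79, limma adjusted p = 0.0856). The median of the 8 was -0.20. The plants' floral content can be read only in part from the named markers. SPL, UFO and CLV3, which mark sporogenous tissue, floral meristems and the stem cell domain, were all too dim to be tested, with no wild type or vip6 array above 16.3.

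Cold and dehydration genes were the family with the lowest median among lists of at least 5 tested members, at -0.43 over 8 tested of 10 named. COR15B, a cold-regulated protein of the chloroplast stroma, read 1492 and 814 in wild type and 697 and 271 in vip6, a difference of -1.26 with -1.06 and -1.46 within the numbers (limma adjusted p = 0.49). Number 2 was lower than number 1 in both genotypes for COR15B. Its close relative COR15A read 1335 and 1164 against 629 and 1237, so that it was lower in number 1 only. The dehydrins, which bind water and membranes under drought and cold, were even. LTI30 read 400.1 and 354 in wild type and 215 and 148 in vip6, at -0.93 (limma adjusted p = 0.246), and COR47 read 3620.2 and 3738 against 2554 and 2422, at -0.56 (limma adjusted p = 0.34).

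COR27, a cold gene that is also under clock control, followed the replicate number far more than the genotype. It read 416 on WT_1 and 1308 on vip6_1, and 3.2 on WT_2 and 23.5 on vip6_2. Its mean difference of 1.06 had a 95% interval from -2.95 to 5.07.

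Of 4 genes named for aliphatic glucosinolates, mustard oil precursors made from methionine, 3 were tested; 2 were lower and 1 higher within both numbers, and none was called. BCAT4 (AT3G19710), which starts the chain elongation of methionine, read 6459 and 7714 in wild type and 3230.1 and 3294 in vip6. The vip6 arrays agreed closely with each other and lay below both wild type arrays, as they did for 20.8% of all tested probe sets. Its log2 difference was -1.10 (95% interval -1.53 to -0.68, limma adjusted p = 0.109), with -0.99 and -1.22. GSTU20, a glutathione transferase of the same pathway, read 6925 and 10713 against 5089 and 6904, at -0.54 (-0.85 to -0.22 with 1 array left out). AOP1, of the same list, read 289 and 402 against 298 and 463, at 0.11, and its arrays overlapped.

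Of 24 cytochrome P450 genes named, 11 were tested; 7 were lower within both numbers and 0 higher, 0 were called, the median was -0.20, and the widest apart was CYP71B34 at -0.53. Of 51 UDP-glycosyltransferases, 23 were tested, 9 lower and 3 higher within both numbers, with a median of -0.12 and no call. UGT85A4 was the widest apart, at 239 and 173 in wild type and 137 and 59.2 in vip6. Of 22 beta-glucosidases, 13 were tested. BGLU28 read 37.9 and 2.3 in wild type and 81.8 and 189 in vip6, a difference of 1.55 of which most came from number 2 (0.65 and 2.45), and BGLU47 read 341 and 469.5 against 142 and 259.6, at -0.92.

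Sugar transporters had the highest median of any list with at least 5 tested members, 0.31 over 12 tested of 19 named. Within both numbers 7 were higher and 2 lower, and none passed the limma test. SWEET11 (AT3G48740), a sucrose exporter that loads the phloem in leaves, read 3333 and 2368 in wild type and 6284 and 6576 in vip6, a difference of 1.18 (95% interval 0.69 to 1.67, limma adjusted p = 0.138). SWEET1, a glucose carrier, read 854 and 732 against 1534 and 1523, at 0.92 (limma adjusted p = 0.157). For both, each vip6 array was above each wild type array, as it was for 19.1% of all tested probe sets. Within the numbers the differences were 0.91 and 1.46 for SWEET11 and 0.82 and 1.02 for SWEET1.

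Of 18 expansins named, wall-loosening proteins, 11 were tested, with 7 lower and 1 higher within both numbers and a median of -0.36. None was called. EXPB1 read 193 and 493 in wild type and 171 and 231 in vip6, EXPA8 read 1275 and 2345 against 1080.2 and 1295, and EXLA1 read 685 and 527 against 526 and 312. In EXPB1 and EXPA8 the wild type arrays themselves differed by more than the genotypes did in number 1, and with 1 array left out the mean difference ran from -1.16 to 0.039 for EXPB1 and from -0.96 to -0.10 for EXPA8. Of 10 xyloglucan transferases, which remodel the hemicellulose of the wall, 4 were tested, 3 lower and 1 higher within both numbers, and none was called. XTH16 read 873 and 926 against 595 and 512, at -0.67, and XTH32 read 2244 and 2664 against 1488 and 2076, at -0.47. XTH18 went the other way, at 55.1 and 70.0 in wild type and 85.2 and 207 in vip6. TUB1, a beta-tubulin, was the widest apart of 8 tubulin and actin genes tested, at 853 and 1178 in wild type and 418 and 485 in vip6 (-1.09, limma adjusted p = 0.212).

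Among auxin genes, IAA29, a repressor of auxin response that is itself induced by auxin and shade, read 163 and 195 in wild type and 54.7 and 89.0 in vip6. Its difference was -0.98, with -1.10 and -0.87 (limma adjusted p = 0.205). GH3.3, which conjugates auxin to amino acids, read 105 and 159.5 against 276 and 181, at 0.64 with most of it in number 1. The 5 tested auxin genes had a median of -0.08.

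Of 23 bZIP transcription factors named, 15 were tested; 7 were higher within both numbers and 2 lower, with a median of 0.18. bZIP44 (AT1G75390) was the single gene with a symbol that was at least 2-fold higher in both numbers. It read 329.7 and 441 in wild type and 974 and 1094 in vip6, a difference of 1.35 (95% interval 0.88 to 1.82, limma adjusted p = 0.0779), with 1.46 and 1.24. EEL, a bZIP factor of seed maturation and abscisic acid response, read 70.4 and 60.3 against 110.3 and 174, at 0.77. BZIP61 read 270.0 and 271 against 407 and 420.4, at 0.55.

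Of 8 calcium sensors named, 3 were tested and none was called. CML41, a calmodulin-like protein, read 161 and 164 in wild type and 487 and 356 in vip6, a difference of 1.17 (limma adjusted p = 0.157). CML42, a calmodulin-like protein known from trichome branching, read 448 and 349 against 171 and 202, at -0.95 (limma adjusted p = 0.26). The arrays of the 2 genotypes were separate for both genes, in opposite directions. Over all tested probe sets, 19.1% had both vip6 arrays above and 20.8% both below. GIS, a zinc finger factor of trichome initiation chosen after its values were seen, was also lower, at 149 and 175 in wild type and 67.8 and 75.5 in vip6 (-0.86, limma adjusted p = 0.165). ALC, a bHLH factor of fruit opening chosen in the same way, was higher, at 79.4 and 108 against 198 and 302 (1.10, limma adjusted p = 0.184). Among other signalling genes, iqd33, of a family that binds calmodulin, read 76.5 and 169 against 232 and 320.0, at 1.01 (0.58 to 1.43 with 1 array left out), and the channel gene GLR2.7 read 134 and 163 against 53.7 and 75.5, at -0.85. CLE44, a precursor of a peptide that maintains vascular stem cells, read 196 and 184 against 313 and 376, at 0.74.

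Methionine sulphoxide reductases repair oxidised methionine in proteins, and 5 of 5 named were tested. MSRB6 (AT4G04840) read 1008 and 1159 in wild type and 451 and 537 in vip6, a difference of -1.07 (limma adjusted p = 0.138), with -1.09 and -1.06. MSRB9 read 134 and 112 against 362 and 228, at 1.02 (limma adjusted p = 0.242). MSRB5, which lies beside MSRB6 on chromosome 4, read 1147 and 796 against 1243 and 1615, at 0.55, with 0.11 and 0.99 within the numbers and 0.30 to 0.80 with 1 array left out. The difference of MSRB5 thus came mostly from number 2, while that of MSRB6 was even. Of 5 glutaredoxins named, 3 were tested, all 3 higher within both numbers and none called. GRX480 read 69.5 and 53.7 against 132 and 97.9, at 0.61, and GRXC2 read 5978 and 4872 against 8415 and 7740.5, at 0.58.

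Of 11 subtilases named, serine proteases that are mostly secreted, 7 were tested. Within both numbers 3 were higher and 2 lower, the median was -0.02 and none was called. The called loci without a symbol, AT4G21650 among them, are in none of the lists, so no family count covers them. SBT3.12 read 142 and 172 in wild type and 41.4 and 62.4 in vip6, a difference of -1.11 (limma adjusted p = 0.157), while SBT1.3 read 1756 and 1664 against 3196 and 2801, at 0.79 (limma adjusted p = 0.253). Of 29 serine carboxypeptidase-like genes named, 17 were tested, with 6 higher and 9 lower within both numbers, a median of -0.12 and no call. The members scpl25 and scpl47 were higher, at 1176 and 975 against 1890.4 and 2367 for the first and 68.9 and 46.2 against 137 and 152 for the second. The member scpl50 was lower, at 367 and 446 against 202 and 184.

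Of 42 named subunits of the photosystems and electron transport, 41 were tested, with 9 higher and 7 lower within both numbers and a median of 0.00. Within the light-harvesting antenna the 3 tested genes are close paralogues that encode CP29 of photosystem II; 2 were lower within both numbers, none was called and the median was -0.31. LHCB4.3 read 5764 and 4105 in wild type and 2024 and 2569 in vip6, a difference of -1.08 (95% interval -1.71 to -0.45, limma adjusted p = 0.242), with -1.49 and -0.67. The far brighter LHCB4.2 read 19537 and 22736 against 13594 and 21111, so its arrays overlapped. The list of chloroplast genome transcripts shares members with that of the photosystem subunits, psaA among them, so their counts are not independent. Of the genes encoded in the chloroplast genome, 68 of 69 were tested, 8 higher and 20 lower within both numbers, and their median was -0.09. The widest apart were rpl16, a ribosomal protein gene at 1333 and 1138 in wild type and 675 and 682 in vip6 (-0.82, limma adjusted p = 0.244), and psaA, of photosystem I, at 3915 and 7622 against 3268 and 2905, where most of the difference was in number 2.

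Of 12 named subunits of RNA polymerases, 10 were tested, and their log2 differences ran from -0.38 for NRPB6B to 0.32 for NRPC1 (-0.73 to -0.019 and 0.17 to 0.47 with 1 array left out). AT5G08565, annotated with the synonym SPT4-1 after an elongation factor that works beside the Paf1 complex, read 175 and 217 in wild type and 203 and 172 in vip6, so its arrays overlapped. Of 6 core histones, 5 were tested, with 4 lower and 1 higher within both numbers and a median of -0.20. HTB11, a histone H2B gene, was the widest apart, at 1148 and 883 against 756 and 649.

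Aldehyde dehydrogenases had 5 of 8 tested members higher within both numbers and 1 lower, with a median of 0.11. ALDH11A3 read 5298 and 6642 in wild type and 7093 and 11179.5 in vip6, and ALDH3F1 read 1788 and 2466 against 2474 and 3816. Their adjusted p was 0.582 each by limma.

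**Figure D4:**
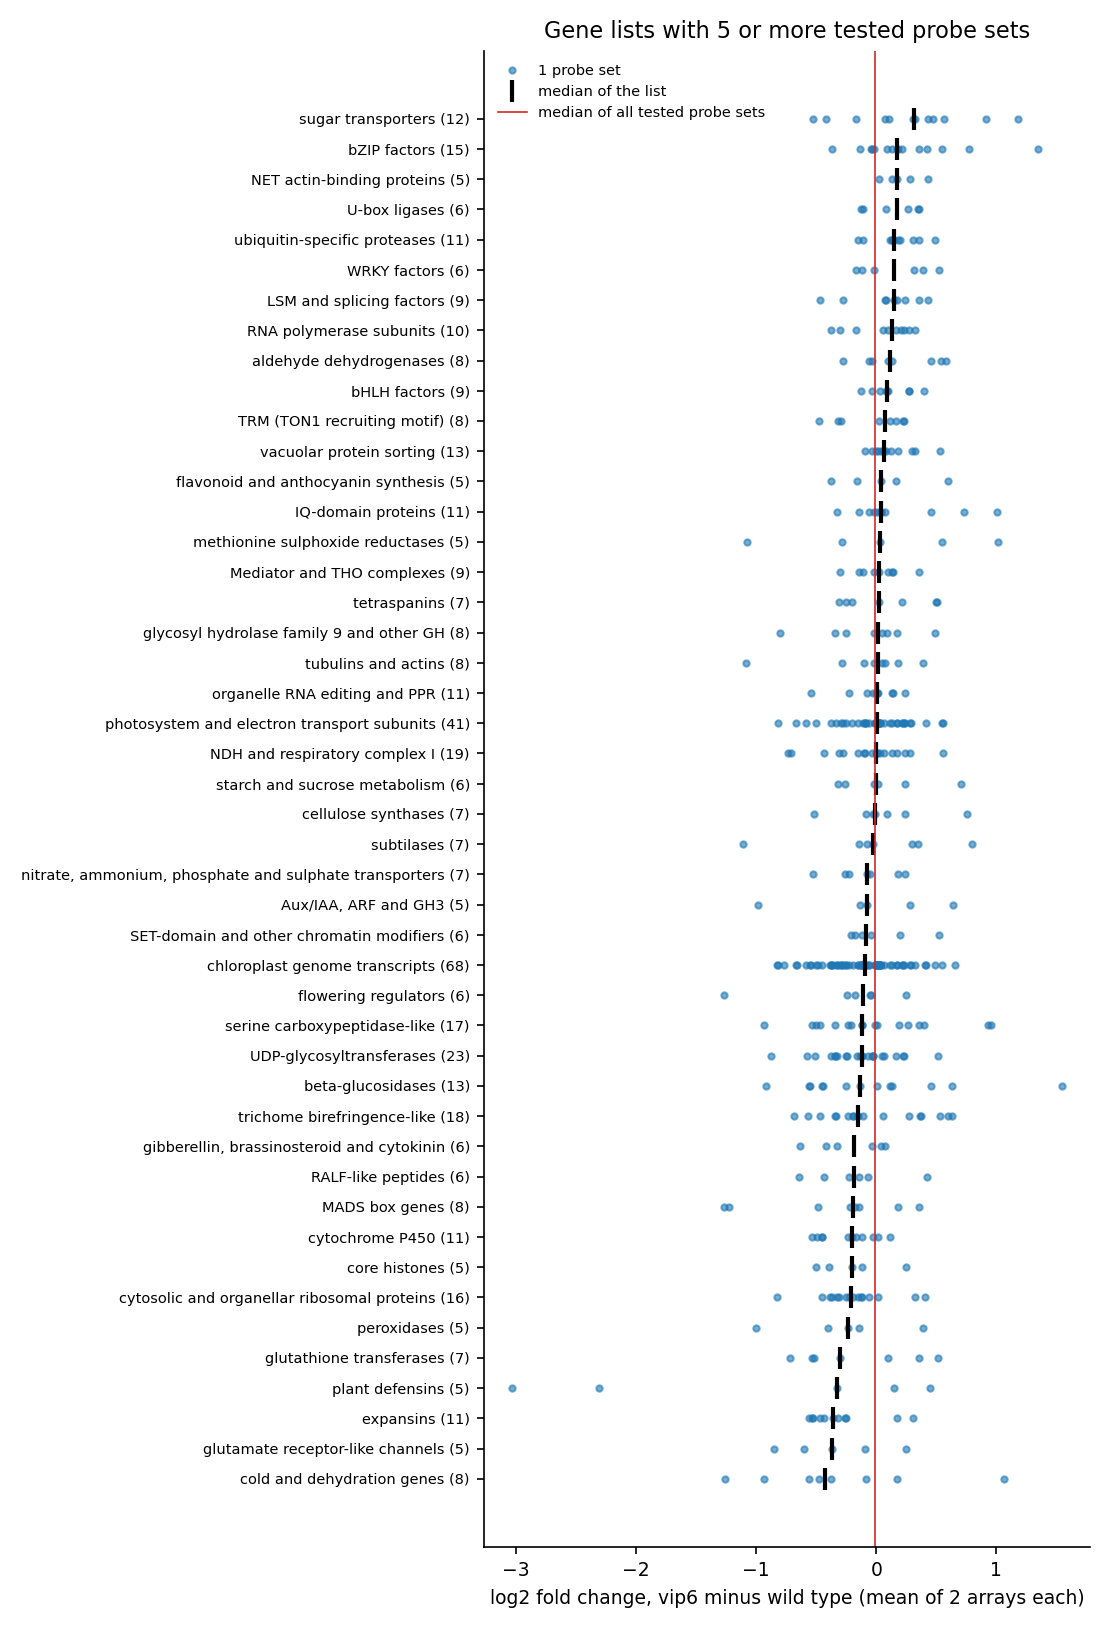
Log2 difference, vip6 minus wild type (mean of 2 arrays each), for every tested member of each gene list with at least 5 tested members; 1 point is 1 probe set, the black tick is the median of the list, the red line is the median of all tested probe sets, and the number tested is in brackets. Sugar transporters lie at the top with a median of 0.31 and cold and dehydration genes at the bottom with -0.43, while the 2 lowest points are the defensins PDF1.2b and PDF1.2.

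Markers of other organs gave a limited check on what was sampled. PYK10, a beta-glucosidase abundant in roots, read 1094 and 1085 in wild type and 717 and 869 in vip6, at -0.45 (limma adjusted p = 0.576). The root hair expansins EXPA7 and EXPA18 were too dim to be tested, with EXPA7 at 51.1 and 33.0 in wild type and 10.7 and 10.3 in vip6 and EXPA18 at 53.6 and 103.7 against 35.6 and 27.2. All 3 root genes were lower on each vip6 array than on the wild type array of the same number, as were 30.6% of all tested probe sets. Of the 3, only PYK10 was tested, and the vip6 values of EXPA7 and EXPA18 all lay below the pseudocount. The part of root RNA in the other differences was not tested. The oil body gene OLEO3 was also too dim to be tested, at 96.2 and 110.5 against 40.4 and 52.8.

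Neighbouring genes were examined for those at least 2-fold apart in both numbers. For 25 of the named genes at least 1 adjacent gene on the chromosome was tested, 30 adjacent genes in all. Of these 30, 0 were at least 2-fold apart in both numbers (0.636% of all tested probe sets were) and 0 passed the limma test (0.105%). Their mean differences ran from -1.06 to 0.55. The lowest belonged to AT1G31710, beside AT1G31690, whose probe sets were lower in both numbers, one at 989 and 1221 in wild type and 513 and 500.1 in vip6 (-1.06) and the other at 119 and 423 against 82.5 and 140.1 (-0.87).

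Mutants of VIP5, which encodes the plant counterpart of another Paf1 complex subunit, were on the same platform and share the wild type arrays, so values are given side by side and not correlated. AT2G19970 read 2.7 and 3.2 in vip6 and 11.5 and 6.3 in vip5. PDF1.2b read 37.2 and 40.4 in vip6 and 16.8 and 47.2 in vip5, and AGL24 read 107 and 76.2 in vip6 and 88.7 and 114.9 in vip5. The mutants' arrays interleaved or lay close for these 3 genes, far from wild type. BCAT4 read 3230.1 and 3294 in vip6 and 3339 and 3357 in vip5, and SWEET11 read 6284 and 6576 in vip6 and 6397 and 6369 in vip5. The intervals of vip6 minus vip5 were -0.46 to 0.39 for BCAT4 and -0.48 to 0.50 for SWEET11.

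Tested directly against each other, vip6 and vip5 differed at 0 of 14319 probe sets by limma at an adjusted p of 0.05, with 219 at an unadjusted p under 0.05. The lowest adjusted p, 0.160, belonged to QQS, a gene that affects leaf starch. QQS read 344 and 240.5 in wild type, 466 and 525 in vip6 and 2255 and 2855 in vip5. It was thus modestly higher than wild type in vip6 (0.71, limma adjusted p = 0.359) and lower in vip6 than in vip5 by a log2 difference of -2.27 (95% interval -2.80 to -1.75). The pseudogene AT1G43590 was high in vip6, at 192 and 145, and read 52.4 and 8.4 in vip5, a difference of 1.64 (95% interval 0.90 to 2.38, limma unadjusted p = 0.00102, adjusted p = 1).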

How the data were processed

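Linear intensity values for each probe set and array were used as the authors deposited them, and no value is negative. The program behind them is not named in the sources used here. Trimmed means with 2% of probe sets left out at each end agreed within the tolerance of 5%, so no further normalization was applied. Values were taken as log2(intensity + 39.5), the pseudocount being the median over the 6 arrays of the 25th percentile of the 22746 probe sets left after 64 controls. Testing required a value over an array's own 40th percentile on 2 or more arrays of the 6. Differences come from limma 3.58.1 in R 4.3.3 (lmFit and eBayes, 3 group means, two-sided, 3 residual degrees of freedom, Benjamini-Hochberg adjustment). The code was tested on simulated data with independent noise and no effect of the replicate number, so that test does not cover such an effect. Intervals are 95% intervals from the limma fit to the deposited values. An exact permutation test of 2 arrays against 2 cannot go below p = 0.333 and was not used. The small number of arrays limits the precision.

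Genes were named from the platform annotation, updated through gene identifiers to the gene table of TAIR 10.1, which served for names and neighbours only: 13513 probe sets name 1 gene, 503 several and 8794 are not listed, and 13436 of the first matched a locus. Coordinates and sequences are not given here. The text names every called probe set with 1 gene. It names the 20 highest and 20 lowest mean differences among single genes at least 2-fold apart in both numbers (15 higher exist). From each list described it names such members or up to 4 with the widest differences. Tested flowering, clock and elongation genes are named whatever their values, and those too dim to be tested are not. Exceptions are marked in the text. The 94 gene lists were matched on symbols and names, matches to unrelated genes of like name were removed, and some lists were written after the annotation was seen. The comparison, the members and the lists were chosen with earlier results of these data known. Between numbers 1 and 2 the wild type and vip6 differences correlated at 0.308 over tested probe sets, which does not establish that equal numbers are paired. Alternatives covered the number as a block, the arrays fitted, normalization, pseudocount, filter, variance model, threshold and each array left out. Python 3.11.15 with pandas 2.3.3 and matplotlib 3.10.9 made the summaries and plots.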

Additional observations from a re-analysis of the deposited data

How the results depend on the processing

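The 15 calls depended strongly on the setting: limma made 5 with only the 4 arrays of wild type and vip6, 24 with a pseudocount of 9.88, 1 with no filter on dim probe sets (over 22746), 39 at an adjusted p of 0.1, and 0 with any 1 of the 4 arrays left out, where the lone array of a group is assumed to vary like the other groups. At an unadjusted p under 0.05, those fits gave 945 to 1252. Quantile normalization, a pseudocount of 158, the 60th percentile filter and a variance trend gave 11 to 17. With the replicate number as a block there were 252 calls, 102 higher and 150 lower, among them all 15 and 48 further named genes, AGL24, PDF1.2, bZIP44 and AT3G16530 included; the labels do not say that the numbers pair the arrays. The count of 91 probe sets at least 2-fold apart in both numbers was 163 with a pseudocount of 9.88 and 35 with one of 158, 311 within number 1 alone, 458 within number 2 alone, and 522 at 1.5-fold, a size chosen after seeing the data; it was 66 to 115 under quantile normalization and both other filters. The cause of these shifts was not tested, apart from the fewer or additional probe sets that the filters themselves bring.

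Among the 107 named genes, with any array left out the log2 difference changed sign for GI (-0.33 to 0.82), AGL18 (-0.48 to 0.13), SNZ (-0.21 to 0.11), FY (-0.16 to 0.064), LCR69 (-0.0018 to 0.90), LCR66 (-0.27 to 0.57), ORA47 (-0.26 to 2.99), COR27 (-1.15 to 3.27), LHCB4.2 (-0.63 to 0.0024), AT5G08565 (-0.18 to 0.080), EXPB1 (-1.16 to 0.039), JMT (-0.013 to 0.24), AOP1 (-0.17 to 0.40) and WRKY53 (-0.69 to 0.66), none of them called. Another 24, none called, kept their sign but moved by over 1.5 times. Quantile normalization turned SNZ to 0.0016 and WRKY53 to 0.053, and the pseudocount of 9.88 turned WRKY53 to 0.017. No other named gene changed direction under the alternatives run.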
